A study of Homo sapiens with 8 samples.

Results

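Named antisense genes are noncoding genes whose symbol is that of another gene followed by -AS1, -AS2 or -AS3. They were taken from the combined count table of long-read transcripts, in which transcripts were summed per gene. The rule kept genes with a gene name in the combined annotation and at least 20 counts over the 8 libraries, so the members were chosen by their summed count. GATA3-AS1, GATA6-AS1 and EPB41L4A-AS1 were left out by name. The rule kept 198 of the 517 antisense genes with any count, in a table of 29937 genes and loci. The gene named before the dash is called the partner here.

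All 8 libraries were made from the established human embryonic stem cell line H1, with no genetic change named in the labels. Polyadenylated RNA of 4 groups with 2 repeats each was read in long reads by a PacBio Sequel II. The groups were undifferentiated pluripotent cells (hPSC) and ectoderm, endoderm and mesoderm cultures, the layers being collected after 5 days of differentiation. Endoderm received WNT3A and Activin A; mesoderm received VEGF, BMP4 and bFGF, with Activin A only at the start. Ectoderm received the inhibitors A83-01, PNU-74654 and Dorsomorphin in medium with KOSR, a serum replacement. Nothing in the labels says that repeats were separate cultures, so p-values measure the spread between these samples, which may be technical.

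Antisense genes are transcribed from the strand opposite to a neighbouring gene. Many start close to the promoter of that gene and run away from it, as the other product of a bidirectional promoter, while others run into it or lie across it. Some act on the neighbouring gene in cis and a few have known functions elsewhere in the cell, but for most no function is known. In differentiating stem cells, antisense genes beside genes of developmental transcription factors are known to be expressed with them.

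The promoters of 3 antisense genes that were called and start close to the partner are shown to make this arrangement visible. The RefSeq table held 154 of the 198 antisense genes. Each sequence runs 5′ to 3′ on the strand of the antisense gene, from 250 bases before to 50 bases after its RefSeq start on GRCh38.p14. Capitals mark the bases that also lie in the promoter window of the partner on the other strand. The windows are chr13:94712466-94712765 on the plus strand for SOX21-AS1, chr21:39612773-39613072 on the minus strand for B3GALT5-AS1, and chr1:63322409-63322708 on the minus strand for FOXD3-AS1.
SOX21-AS1: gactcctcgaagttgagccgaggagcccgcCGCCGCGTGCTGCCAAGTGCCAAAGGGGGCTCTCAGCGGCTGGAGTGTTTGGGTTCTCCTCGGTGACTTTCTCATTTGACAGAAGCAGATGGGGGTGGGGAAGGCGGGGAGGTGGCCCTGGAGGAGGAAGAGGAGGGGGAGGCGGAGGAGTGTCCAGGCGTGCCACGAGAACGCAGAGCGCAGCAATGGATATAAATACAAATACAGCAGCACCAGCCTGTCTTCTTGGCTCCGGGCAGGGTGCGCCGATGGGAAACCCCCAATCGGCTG
B3GALT5-AS1: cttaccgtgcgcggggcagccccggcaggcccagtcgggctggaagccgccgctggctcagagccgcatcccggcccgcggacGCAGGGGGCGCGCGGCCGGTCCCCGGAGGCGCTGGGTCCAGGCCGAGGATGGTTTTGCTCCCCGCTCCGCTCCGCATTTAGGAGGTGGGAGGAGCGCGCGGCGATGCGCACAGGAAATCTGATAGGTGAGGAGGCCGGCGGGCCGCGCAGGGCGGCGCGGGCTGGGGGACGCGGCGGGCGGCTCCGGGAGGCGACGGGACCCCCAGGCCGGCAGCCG
FOXD3-AS1: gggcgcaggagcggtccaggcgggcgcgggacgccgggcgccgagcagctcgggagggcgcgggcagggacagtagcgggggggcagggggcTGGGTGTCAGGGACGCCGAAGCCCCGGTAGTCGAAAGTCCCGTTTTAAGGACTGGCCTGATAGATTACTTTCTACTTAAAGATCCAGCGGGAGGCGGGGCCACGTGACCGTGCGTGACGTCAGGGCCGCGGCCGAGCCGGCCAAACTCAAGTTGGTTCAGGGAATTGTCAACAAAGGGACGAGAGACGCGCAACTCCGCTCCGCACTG
The windows of the 2 neighbours shared 270 bases for SOX21-AS1, 217 for B3GALT5-AS1 and 208 for FOXD3-AS1. The RefSeq starts lay 171, 118 and 109 nt apart. The start of the most abundant assembled transcript matched the RefSeq start for SOX21-AS1, lay 65 nt upstream of it for B3GALT5-AS1, and lay 823 nt downstream of it for FOXD3-AS1. No promoter is printed for FEZF1-AS1 and LHX5-AS1.

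The CG content of these promoters differed. The windows of SOX21-AS1, B3GALT5-AS1 and FOXD3-AS1 held 18, 43 and 33 CG dinucleotides. The median was 26 over the 154 antisense genes, 24 over 160 partners, and 14 over all 27305 promoters of the table. In the 38 antisense genes with a promoter in the table that started within 300 nt of the partner without overlapping it, the median was 28. The motif GGGCGG, searched on both strands, was in 63.6% of the antisense promoters and in 44.6% of all promoters of the same length. CCAAT was in 35.1% of them against 35.7%, and TATAAA in 7.14% against 11.9%. SOX21-AS1 had TATAAA and CCAAT, B3GALT5-AS1 had GGGCGG, and FOXD3-AS1 had none of these motifs. These matches are a description of letters and not of bound sites.

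Most of the antisense genes lay head to head with the partner. Position and distance were taken from the most abundant assembled transcript of each gene, and its other transcripts may start elsewhere. Of the 198, 114 lay on the opposite strand and ran outward on the start side of the partner, at any distance. In 85 of them the transcripts lay apart and in 29 they overlapped. Another 48 lay tail to tail, 24 of them overlapping. A further 13 lay inside the partner, 5 spanned it, and 1 was on the same strand. For 17 the partner had no reads. Among the 114 head-to-head genes, 84 started within 1000 nt of the partner, and the median distance was 267.5 nt.

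**Figure D1:**
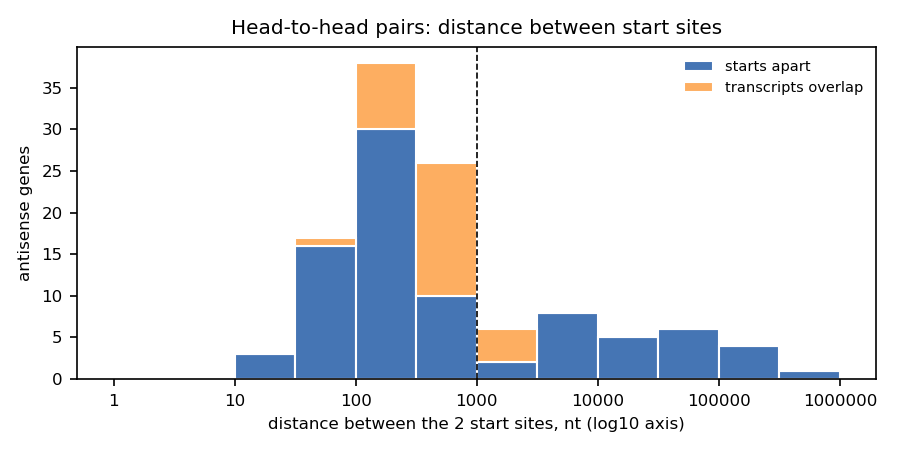
Distance in nt between the start sites of the most abundant transcripts (log10 axis) for the 114 antisense genes that lie head to head with the partner; bars count genes, blue for pairs that lie apart and orange for pairs that overlap. 84 of the 114 lie at or below 1000 nt, left of the dashed line.

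Antisense transcripts were long, often unlike the reference, and low in count. The median gene had 50 counts over the 8 libraries and the highest had 562. The 10 genes with the most counts held 24.0% of the 15196 counts. The most abundant transcript had 1 exon in 65 genes, 2 exons in 63 and 3 or more in 70, and its median length was 4303 nt. Spliced transcripts held 76.8% of the antisense counts, against 95.2% over all genes with a name. Transcripts of the reference annotation held 48.7% of them, against 83.0% over all genes with a name. PCBP1-AS1 had 70 transcripts, the most of any, while the median was 4.

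The rule counted reads over all libraries, so deep libraries weighed more in it. The ectoderm libraries held 39.5% of all counts and 52.8% of the antisense counts. Without ectoderm, 82 of the 198 genes would have had under 20 counts; without hPSC, endoderm or mesoderm this would have been 33, 27 and 36. Just inside the threshold, ELOA-AS1, FAM135A-AS1 and HERPUD2-AS1 had 20 counts. Just outside, ZNF497-AS1, WDR86-AS1 and TMCO1-AS1 had 19. In all, 171 genes had counts in all 4 groups and 116 in all 8 libraries. LHX5-AS1 and SIX3-AS1 had counts in 1 group only, ectoderm.

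Library totals ran from 503840 to 586183 counts in hPSC, endoderm and mesoderm and reached 967206 and 1180888 in ectoderm. Levels are given as CPM, the count scaled to a fixed library size, after TMM scaling, a correction for differences in RNA makeup, whose factors ran from 0.712 in endoderm to 1.30 in ectoderm. The cultures carried markers of their labels in part. In mesoderm, 8 of 10 amnion or trophoblast markers were higher than in hPSC. Their summed level there was 6011 and 6547 CPM, against 11.1 to 105.8 CPM in the other groups, while the mesoderm markers summed to 960.1 and 1027 CPM with MIXL1, FOXF1 and MESP1 at 0. Of the 8 mesoderm markers, 3 were called higher in mesoderm and 4 in endoderm, where they summed to 225.0 and 160.6 CPM. The part of cells with amnion or trophoblast markers in the mesoderm results was not tested. The endoderm markers summed to 5689 and 5831 CPM in endoderm and at most 13.6 elsewhere. The ectoderm markers summed to 518.3 and 389.3 CPM in ectoderm and to 555.8 and 584.8 in endoderm. OTX2, which endoderm also expresses, gave 542.3 and 570.4 CPM of the endoderm sums and 118.9 and 103.1 of those of ectoderm. LHX5, ZIC1, LHX2 and SIX6 had no counts in endoderm, and PAX6, SIX3, LHX5 and SIX6 were called higher in ectoderm, where SOX1 had no counts. PAX6 and OTX2 were called higher in endoderm, where PAX6 stood at 13.5 and 11.98 CPM. The 8 pluripotency markers summed to 3707 and 4510 CPM in hPSC. The sums were 1074 and 1414 for ectoderm, 2793 and 2557 for endoderm and 379.3 and 375.8 for mesoderm, and 5, 4 and 7 of the 8 were called lower. NANOG, TDGF1, LIN28A and L1TD1 were not called lower in endoderm.

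The summed level of the 198 genes was 2884 ± 28.2 CPM in ectoderm, 2511 ± 122 in hPSC, 2435 ± 9.62 in mesoderm and 2098 ± 19.6 in endoderm (SD, n = 2). With library totals alone these sums were, in the same order, 3740 ± 67.2, 2364 ± 279, 2723 ± 33.1 and 1542 ± 55.5 CPM. Ectoderm was highest and endoderm lowest on both scales, while hPSC and mesoderm changed places. This order is not independent of the rule: 82 of the 198 genes reached 20 counts only with the ectoderm reads, against 27 with those of endoderm. The sums therefore describe the chosen genes only. The range of the groups was wider on library totals.

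Of the 198, 83 passed the count filter and were tested by the quasi-likelihood test of edgeR, with Benjamini-Hochberg adjustment over all 10847 genes tested. A gene was called where its adjusted p was under 0.05. Of the 83, 30 reached the count filter in the libraries of 1 group alone: 3 in hPSC, 1 in endoderm, 11 in mesoderm and 15 in ectoderm. Such genes passed through the group where they were high, so the counts that follow describe the 83 and do not stand for the 198. Among the genes named below they include FOXD3-AS1, B3GALT5-AS1 and OR2A1-AS1 for hPSC, and APOBEC3B-AS1 for endoderm. They also include BAALC-AS1, CBR3-AS1 and TENM3-AS1 for mesoderm, and FEZF1-AS1, LHX5-AS1, SOX21-AS1 and SYNPR-AS1 for ectoderm. For these genes the level in that group also decided that they were tested. For any difference among the 4 groups, 56 of the 83 were called, against 77.7% of all genes tested. In a layer against hPSC, 49 were called at least in 1 layer, against 71.0% of all genes tested, and 6 in all 3, against 6.82%. The comparisons share the hPSC libraries.

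In ectoderm, 24 of the 83 antisense genes were higher and 9 lower than in hPSC. Over all genes tested the shares called were 48.6% in either direction, 23.8% higher and 24.8% lower, and 39.8% of the 83 were called. The median log2 fold change was 0.31 over the 83 and -0.01 over all genes. It was 0.29 with genes at 0 in a group set to their bound. The mean length of the transcripts that the counted reads fell in was 4323 nt over all named genes in ectoderm and 2968 to 3675 nt in the other groups; its part in these counts was not tested. Without ectoderm repeat 1, 104 antisense genes were tested, of which 14 were higher and 7 lower, and 31.4% of all genes were called. Without repeat 2, 98 were tested, with 11 higher and 7 lower, and 27.9% of all genes were called.

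In endoderm, 3 antisense genes were higher and 11 lower, against 27.2% of all genes called in either direction, 13.4% higher and 13.7% lower. The median log2 fold change was -0.18 over the 83 and -0.13 over all genes, and -0.11 with genes at 0 at their bound. Without endoderm repeat 1, 2 were higher and 6 lower of 106 tested, and 13.6% of all genes were called. Without repeat 2 the split turned, with 3 higher and 2 lower of 106, and 12.1% of all genes were called. With library totals in place of TMM factors, 2 were higher and 17 lower, and 29.6% of all genes were called. In mesoderm, 11 were higher and 11 lower, against 35.1% of all genes called, 16.9% higher and 18.2% lower. The median was 0.00 over the 83 and 0.01 over all genes. Without mesoderm repeat 2, 4 were higher and 5 lower of 105 tested, and 16.7% of all genes were called. With library totals, 15 were higher and 9 lower, and 33.7% of all genes were called. With library totals the median log2 fold change of all genes was 0.43 in ectoderm, -0.48 in endoderm and 0.25 in mesoderm. With DESeq2, 6 antisense genes were higher and 7 lower in ectoderm, where 30.9% of all genes were called. In endoderm 2 were higher and 4 lower, with 16.9% of all genes called, and in mesoderm 4 and 5, with 21.3%.

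**Figure D2:**
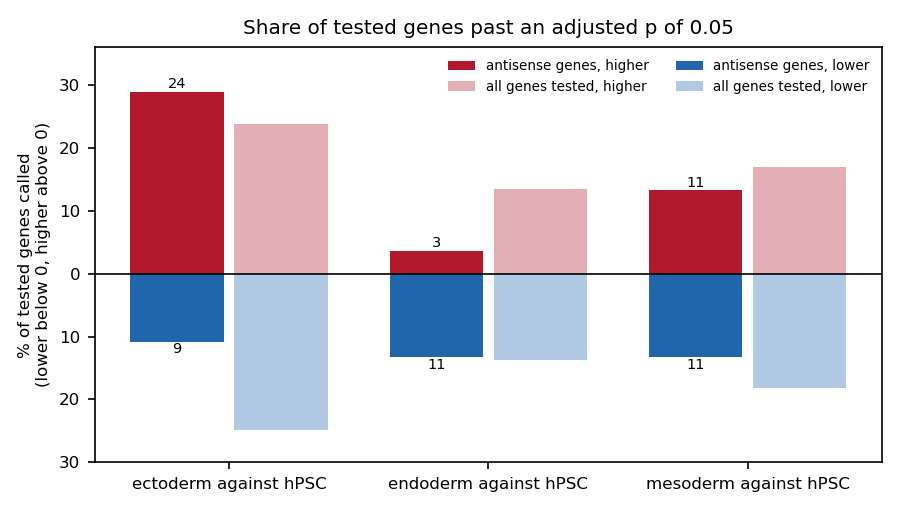
Percent of tested genes called higher (above 0) or lower (below 0) in each layer against hPSC, for the 83 antisense genes (dark bars, with their number) and all 10847 genes tested (pale bars). In ectoderm 24 antisense genes stand above 0 and 9 below, in endoderm 3 and 11, and in mesoderm 11 and 11.

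Other noncoding genes of the same table, listed by name, were counted in the same fit. Over all genes tested, 23.8% were higher and 24.8% lower in ectoderm. The shares were 13.4% and 13.7% in endoderm, and 16.9% and 18.2% in mesoderm. Whether any list departs from these shares was not tested. Of 30 tested divergent transcripts (names ending in -DT, which also start beside a coding gene), 6 were higher and 4 lower in ectoderm. In endoderm the numbers were 3 and 4, and in mesoderm 1 and 4. Of 40 tested LINC genes, the long intergenic noncoding genes, 10 were higher and 11 lower in ectoderm; in endoderm the numbers were 7 and 6, and in mesoderm 1 and 11. Of 14 SNHG genes, which host small nucleolar RNAs, 5 were called in ectoderm, all lower; in endoderm 1 was higher and 3 lower, and in mesoderm 1 and 5. Of 4 tested intronic or overlapping transcripts (-IT or -OT), 1 was called, higher in ectoderm. Of 139 tested partners, 51 were higher and 30 lower in ectoderm; in endoderm the numbers were 14 and 17, and in mesoderm 31 and 24.

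Of the 4 antisense genes with the smallest p among those higher in ectoderm, 3 lay beside genes of neural transcription factors. FEZF1-AS1 (chr7:122304950-122314516, plus strand) started 200 nt from FEZF1, a zinc finger repressor of the developing forebrain. It had 1 and 2 counts in the hPSC libraries, against 210 and 172 for ectoderm, 0 and 0 for endoderm and 0 and 1 for mesoderm. In CPM, ectoderm stood at 138.0 and 136.4, and no other library passed 4.27. The ratio of ectoderm to hPSC was 46.5 (95% interval 15.8 to 227, counting error only), with an adjusted p of 3.4e-06. FEZF1 itself had 890 and 680 counts in ectoderm and at most 7 elsewhere, a log2 fold change of 7.15 (SE 0.56, edgeR adjusted p = 4.97e-07). Both genes were high in ectoderm alone, with no overlap with the other groups.

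LHX5-AS1 (chr12:113472001-113480636, plus strand) started 130 nt from LHX5, a LIM homeobox gene of the forebrain. It had 143 and 129 counts in ectoderm and 0 in the 6 other libraries, which is at least 16.5-fold higher than the hPSC level against a floor of 3 counts per library (edgeR adjusted p = 9e-06). LHX5 had 235 and 156 counts in ectoderm and 0 in the other 6, at least 23.4-fold higher. The order of the 2 genes over the 8 libraries depended on the scale: LHX5-AS1 stood at 45.2 CPM per kb of transcript against 12.7 for LHX5, and at 24.5 CPM against 34.8. The pair was thus detected in the same libraries only; the call of LHX5 ended with DESeq2 (adjusted p = 0.15).

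SOX21-AS1 (chr13:94712716-94716246, plus strand), whose promoter is printed above, started 171 nt from SOX21, a repressor of the SOX family active in neural progenitors. It had 27 and 23 counts in ectoderm, 1 in hPSC repeat 1 and 0 in the rest. The ratio to hPSC was 18.3 (95% interval 3.13 to 736), with an edgeR adjusted p of 0.0023 that became 0.079 with DESeq2. SOX21 had 58 and 35 counts in ectoderm and 0 to 2 elsewhere, a ratio of 11.3 (3.76 to 55.9). SIX3-AS1, beside the eye and forebrain gene SIX3, had 6 and 16 counts in ectoderm and 0 elsewhere, and was too low to test. SIX3 had 133 and 88 counts in ectoderm and 1 in all other libraries together.

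Other antisense genes that rose in ectoderm were present in hPSC too. JAKMIP2-AS1 (chr5:147559942-147714791, plus strand) lies tail to tail across JAKMIP2, a gene of a microtubule-binding protein. Its level was 31.0 and 36.2 CPM in the hPSC libraries, against 108.4 and 123.7 for ectoderm, 15.8 and 7.19 for endoderm and 10.2 and 7.06 for mesoderm. Ectoderm stood above hPSC, and the other layers below it, without overlap. In log2 terms the change was 1.83 (SE 0.33, edgeR adjusted p = 0.00048) in ectoderm, -1.54 (SE 0.49, 0.031) in endoderm and -1.92 (SE 0.49, 0.0069) in mesoderm. The difference between ectoderm and endoderm was 3.36 (adjusted p = 7.78e-06, in a comparison that called 63.1% of all genes), and that between ectoderm and mesoderm 3.74 (6.14e-06, with 35.4% called).

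The directions of JAKMIP2-AS1 were not all equally firm. The endoderm call ended in 9 of 18 alternatives, among them without hPSC repeat 2 (adjusted p = 0.0504), ectoderm repeat 1 (0.061), ectoderm repeat 2 (0.061), endoderm repeat 2 (0.25), mesoderm repeat 1 (0.053) and mesoderm repeat 2 (0.0525), and with DESeq2 (0.13). The mesoderm call ended without mesoderm repeat 2 (0.083). The ectoderm call ended where only reference transcripts, 22.9% of its counts, were used (0.17). JAKMIP2 was not called in ectoderm (log2 fold change 1.05, SE 0.61, edgeR adjusted p = 0.17) and had no counts in endoderm, at least 1.33-fold lower than hPSC (0.046). That endoderm call of JAKMIP2 was lost in 8 alternatives, among them the loss of hPSC repeat 2 (0.18), ectoderm repeat 1 (0.075), endoderm repeat 1 (0.19), endoderm repeat 2 (0.19), mesoderm repeat 1 (0.071) or mesoderm repeat 2 (0.071), and DESeq2 (0.089).

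CCDC144NL-AS1 (chr17:20868433-20999734, plus strand) had 52.9 and 55.4 CPM in the hPSC libraries, against 127.5 and 122.9 for ectoderm, 36.01 and 38.4 for endoderm and 45.7 and 51.2 for mesoderm. Its ectoderm log2 fold change was 1.25 (SE 0.29, edgeR adjusted p = 0.0027), and it lost the call on reference transcripts alone (0.53), which held 22.4% of its counts. CCDC144NL had at most 6 counts in a library. NUTM2A-AS1, whose partner had no reads, had 32.8 and 19.2 CPM in hPSC and 51.9 and 53.1 in ectoderm (log2 fold change 1.03, SE 0.37, adjusted p = 0.032). That call ended without hPSC repeat 2 (0.1), ectoderm repeat 1 (0.08) or ectoderm repeat 2 (0.089), with spliced transcripts only (0.057), with reference transcripts only (0.99), with DESeq2 (0.14), and with the compared groups alone (0.055). Of the remaining 15 antisense genes called higher in ectoderm that have no paragraph of their own, the fitted log2 fold changes ran from 1.14 for CCDC18-AS1 to 3.04 for SYNPR-AS1.

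FOXD3-AS1 (chr1:63320878-63324441, minus strand) lies beside FOXD3, a forkhead factor of pluripotent cells and neural crest, and it fell in all 3 layers. It had 72 and 53 counts in the hPSC libraries, against 1 and 1 for ectoderm, 0 and 2 for endoderm and 0 and 0 for mesoderm. The hPSC libraries stood at 131.3 and 113.0 CPM, and no other library passed 4.79. hPSC was 171 times ectoderm (95% interval 46.4 to 1428), 52.9 times endoderm (14.4 to 442), and at least 23.6-fold higher than mesoderm. The edgeR adjusted p was 4.76e-07, 1.48e-05 and 2.08e-06, and each call held in all 18 alternatives. FOXD3 had 9 and 1 counts in hPSC and 0 in the layers. Per kb of transcript, FOXD3-AS1 stood above FOXD3, with 45.2 against 0.905 CPM per kb over the 8 libraries, and in CPM too, with 31.3 against 2.32.

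B3GALT5-AS1 (chr21:39597146-39612887, minus strand) starts beside B3GALT5, a galactosyltransferase that makes glycan chains of the cell surface, at the shared promoter printed above. It had 47.4 and 51.2 CPM in the hPSC libraries, against 5.26 and 7.93 for ectoderm, 6.75 and 7.19 for endoderm and 8.47 and 8.82 for mesoderm. All 6 layer libraries lay below both hPSC libraries. The log2 fold change was -2.85 (SE 0.40, edgeR adjusted p = 6.41e-05), -2.81 (SE 0.51, 0.00088) and -2.47 (SE 0.45, 0.0007). Each held in all 18 alternatives.

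B3GALT5 fell with it, from 18.2 and 34.1 CPM in hPSC to 3.94 and 4.76 for ectoderm, 0 and 7.19 for endoderm and 6.77 and 5.29 for mesoderm. Its log2 fold change was -2.49 (SE 0.58, edgeR adjusted p = 0.0025) in ectoderm and -2.04 (SE 0.65, 0.024) in mesoderm, and its ratio in endoderm was 7.34-fold lower (2.25 to 37.9). These calls of B3GALT5 were lost without hPSC repeat 2 in ectoderm (0.053), endoderm (0.08) and mesoderm (0.19). The ectoderm call was also lost without ectoderm repeat 1 (0.066) or ectoderm repeat 2 (0.0502), and the endoderm call without endoderm repeat 1 (0.18) and with DESeq2 (0.0997). The mesoderm call was lost without ectoderm repeat 1 (0.068), ectoderm repeat 2 (0.07), mesoderm repeat 1 (0.14) or mesoderm repeat 2 (0.19), and with DESeq2 (0.16).

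HDAC2-AS2 (chr6:113969931-114472043, plus strand) fell in all 3 layers while HDAC2, a histone deacetylase, was called in none. Its level was 40.1 and 74.6 CPM in the hPSC libraries, against 15.1 and 7.93 for ectoderm, 20.2 and 16.8 for endoderm and 15.2 and 8.82 for mesoderm. The log2 fold change was -2.21 (SE 0.42, edgeR adjusted p = 0.0006), -1.62 (SE 0.48, 0.02) and -2.20 (SE 0.49, 0.0028). The endoderm call was lost without hPSC repeat 2 (0.1), endoderm repeat 1 (0.1) or endoderm repeat 2 (0.15) and with DESeq2 (0.12), and the mesoderm call without mesoderm repeat 2 (0.056). None of its counts fell in reference transcripts. HDAC2 differed between the hPSC repeats, at 251.6 and 104.5 CPM, and its log2 fold changes were 0.51, -0.97 and 0.06 (adjusted p = 0.24, 0.075 and 0.91).

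OR2A1-AS1 (chr7:144296220-144355573, minus strand), named after an olfactory receptor gene with no reads, had 58.4 and 23.5 CPM in the hPSC libraries, against 9.197 and 11.1 for ectoderm, 9.001 and 2.40 for endoderm and 8.47 and 8.82 for mesoderm. Both hPSC repeats lay above every layer library. Its log2 fold change was -1.99 (SE 0.46, edgeR adjusted p = 0.0027), -2.83 (SE 0.66, 0.0051) and -2.23 (SE 0.56, 0.0066). Without hPSC repeat 1 all 3 calls were lost (0.13, 0.074 and 0.12). They were also lost without ectoderm repeat 1 in ectoderm (0.062), without endoderm repeat 2 in endoderm (0.1), and without mesoderm repeat 1 (0.081) or mesoderm repeat 2 (0.076) in mesoderm. DESeq2 ended the ectoderm (0.052) and mesoderm (0.056) calls.

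MRPL20-AS1 (chr1:1399515-1402046, plus strand) overlaps the end of MRPL20, a protein of the mitochondrial ribosome. It had 45.6 and 70.4 CPM in the hPSC libraries, against 13.1 and 12.7 for ectoderm, 36.01 and 38.4 for endoderm and 27.1 and 14.1 for mesoderm. In log2 terms the change was -2.10 (SE 0.38, edgeR adjusted p = 0.00046) in ectoderm, where the call held in all alternatives run, and -1.45 (SE 0.41, 0.012) in mesoderm. The mesoderm call was lost without hPSC repeat 2 (0.056) or mesoderm repeat 2 (0.16) and with DESeq2 (0.09). In endoderm the gene was not called (-0.64, SE 0.39, 0.24). HSD17B1-AS1, a gene of 1 exon named after a steroid dehydrogenase without reads, had 93.0 and 91.7 CPM in hPSC and 43.4 and 33.3 in ectoderm. Its log2 fold change was -1.22 (SE 0.31, 0.0049), and the call was lost without ectoderm repeat 2 (0.11).

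MRPL20 was called lower in ectoderm as well, with 27.4 and 57.6 CPM in hPSC and 17.1 and 17.4 in ectoderm (log2 fold change -1.23, SE 0.39, edgeR adjusted p = 0.017). That call was lost in 7 of 18 alternatives: without hPSC repeat 2 (0.33), ectoderm repeat 1 (0.13) or ectoderm repeat 2 (0.13), with library totals (0.1), with DESeq2 (0.11), with no filter on low counts (0.065) and with the compared groups alone (0.065). Every transcript of MRPL20-AS1 overlaps exons of MRPL20, and whether the counting used strand is not given in the sources used here. Spliced transcripts held 88.0% of the counts of MRPL20-AS1.

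Endoderm had 3 antisense genes that rose. FBXL19-AS1 (chr16:30918537-30923458, minus strand) starts 654 nt from FBXL19, an F-box protein that binds CpG islands. It had 2 and 1 counts in the hPSC libraries, against 9 and 9 for ectoderm, 36 and 17 for endoderm and 10 and 11 for mesoderm. In CPM this was 3.65 and 2.13, 5.91 and 7.14, 81.0 and 40.7, and 16.9 and 19.4. Endoderm stood above all other libraries and its repeats differed from each other. The ratio to hPSC was 20.9 (95% interval 6.76 to 104, edgeR adjusted p = 0.00015) in endoderm and 6.15 (1.84 to 32.2, 0.016) in mesoderm, where the call was lost without hPSC repeat 2 (0.055) or mesoderm repeat 2 (0.073) and with DESeq2 (0.062). FBXL19 had 0 to 4 counts per library.

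APOBEC3B-AS1 (chr22:38984299-38998230, minus strand) overlaps APOBEC3B, a DNA cytosine deaminase, tail to tail. It had 21 and 23 counts in endoderm, against 1 and 2 for hPSC, 0 and 2 for ectoderm and 0 for mesoderm. The ratio of endoderm to hPSC was 17.3 (95% interval 5.55 to 87.2, edgeR adjusted p = 0.00061), and the call held in all alternatives run. APOBEC3B did not follow: it had 32.8 and 46.9 CPM in hPSC and 36.01 and 9.59 in endoderm (log2 fold change -0.79, SE 0.51, 0.27), and it fell in ectoderm (ratio 36.5-fold lower, 11.6 to 184) and mesoderm (log2 fold change -3.13, SE 0.66, 0.002).

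TSPEAR-AS1 (chr21:44485447-44520830, plus strand) overlaps TSPEAR, a gene needed for teeth and hair follicles. It had 9.12 and 10.7 CPM in the hPSC libraries, against 11.2 and 16.7 for ectoderm, 47.3 and 21.6 for endoderm and 3.39 and 1.76 for mesoderm. Its endoderm log2 fold change was 1.78 (SE 0.56, edgeR adjusted p = 0.028). The call was lost without hPSC repeat 1 (0.063) or endoderm repeat 1 (0.3), with library totals (0.08) and with DESeq2 (0.15). TSPEAR rose in endoderm too, from 1.82 and 8.53 CPM to 63.0 and 76.7 (log2 fold change 3.76, SE 0.57, 0.00025). All counts of TSPEAR-AS1 came from transcripts that overlap exons of TSPEAR, and all of them were spliced.

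GABPB1-AS1 (chr15:50354943-50372202, plus strand) starts 262 nt from GABPB1, a subunit of the transcription factor GABP, and fell in endoderm. It had 67.5 and 42.6 CPM in the hPSC libraries, against 79.5 and 63.4 for ectoderm, 18.0 and 7.19 for endoderm and 37.2 and 44.1 for mesoderm. The endoderm libraries lay below all others (log2 fold change -2.13, SE 0.49, edgeR adjusted p = 0.0046), and the call was lost without endoderm repeat 2 (0.096). GABPB1 was not called there (-0.45, SE 0.44, 0.48).

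In mesoderm, BAALC-AS1 was the antisense gene with the smallest p among those that rose. It had 25 and 18 counts in mesoderm, against 0 for hPSC, 4 and 1 for ectoderm and 1 and 1 for endoderm. The mesoderm level was above that of hPSC by at least 6.24-fold (edgeR adjusted p = 0.00013), and the call held in all alternatives run. BAALC had 0 and 4 counts in mesoderm. CBR3-AS1 (chr21:36131765-36156330, minus strand) spans CBR3, a carbonyl reductase, and had 21 and 12 counts in mesoderm against 0 to 5 in the other libraries. Its ratio to hPSC was 9.67 (3.03 to 49.3, 0.0053), and the call was lost without mesoderm repeat 1 (0.092). CBR3 itself had 3 counts in all.

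TPT1-AS1 (chr13:45341396-45393413 over all its transcripts, plus strand) is named after TPT1, a translationally controlled protein. The most abundant transcript of TPT1-AS1 starts 43884 nt from that of TPT1, and other transcripts of the gene may start elsewhere. The level of TPT1-AS1 was 7.29 and 19.2 CPM in the hPSC libraries. It was 33.5 and 31.7 for ectoderm, 42.8 and 24.0 for endoderm and 64.3 and 61.8 for mesoderm. Every layer library lay above both hPSC libraries. Its log2 fold change was 2.30 (SE 0.46, edgeR adjusted p = 0.0014) in mesoderm, where the call held in all alternatives run, and 1.37 (SE 0.47, 0.023) in ectoderm. The ectoderm call was lost without hPSC repeat 1 (0.17), ectoderm repeat 1 (0.062) or ectoderm repeat 2 (0.051), and with DESeq2 (0.092). In endoderm it was 1.35 (SE 0.52, 0.065) and not called. TPT1 was called in no layer, with log2 fold changes of 0.11, -0.35 and 0.22. It had only 17 to 129 counts per library, in transcripts with a mean length of 4022 nt.

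The most abundant transcript of TENM3-AS1 (chr4:181979366-182144466, minus strand) starts 304533 nt from that of TENM3, a teneurin of neuronal wiring. TENM3-AS1 was higher in mesoderm. It had 4 and 3 counts in the hPSC libraries, against 9 and 5 for ectoderm, 0 and 0 for endoderm and 29 and 17 for mesoderm. In CPM the mesoderm libraries stood at 49.1 and 29.99 and no other passed 7.29. The mesoderm log2 fold change was 2.52 (SE 0.55, edgeR adjusted p = 0.0028), which was lost without mesoderm repeat 1 (0.066). The endoderm call (0.042) rests on a group at 0 against 7 counts, for which the floor of 3 counts per library gives no fold above 1, and it was lost in 10 of 16 alternatives, with an adjusted p up to 0.2. Endoderm and mesoderm differed (adjusted p = 0.00013, in a comparison that called 47.1% of all genes).

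TENM3 went from 58.4 and 23.5 CPM in hPSC to 6.75 and 12.0 in endoderm (log2 fold change -2.16, SE 0.58, edgeR adjusted p = 0.012) and 89.7 and 100.6 in mesoderm (1.21, SE 0.39, 0.027). The endoderm call of TENM3 was lost without hPSC repeat 1 (0.15), endoderm repeat 1 (0.15) or endoderm repeat 2 (0.07). The mesoderm call was lost without hPSC repeat 2 (0.12), mesoderm repeat 1 (0.086) or mesoderm repeat 2 (0.14), with DESeq2 (0.087) and with the compared groups alone (0.068). In ectoderm TENM3 was higher (1.06, SE 0.38, 0.03) and TENM3-AS1 was not called (-0.40, SE 0.69, 0.66).

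**Figure D3:**
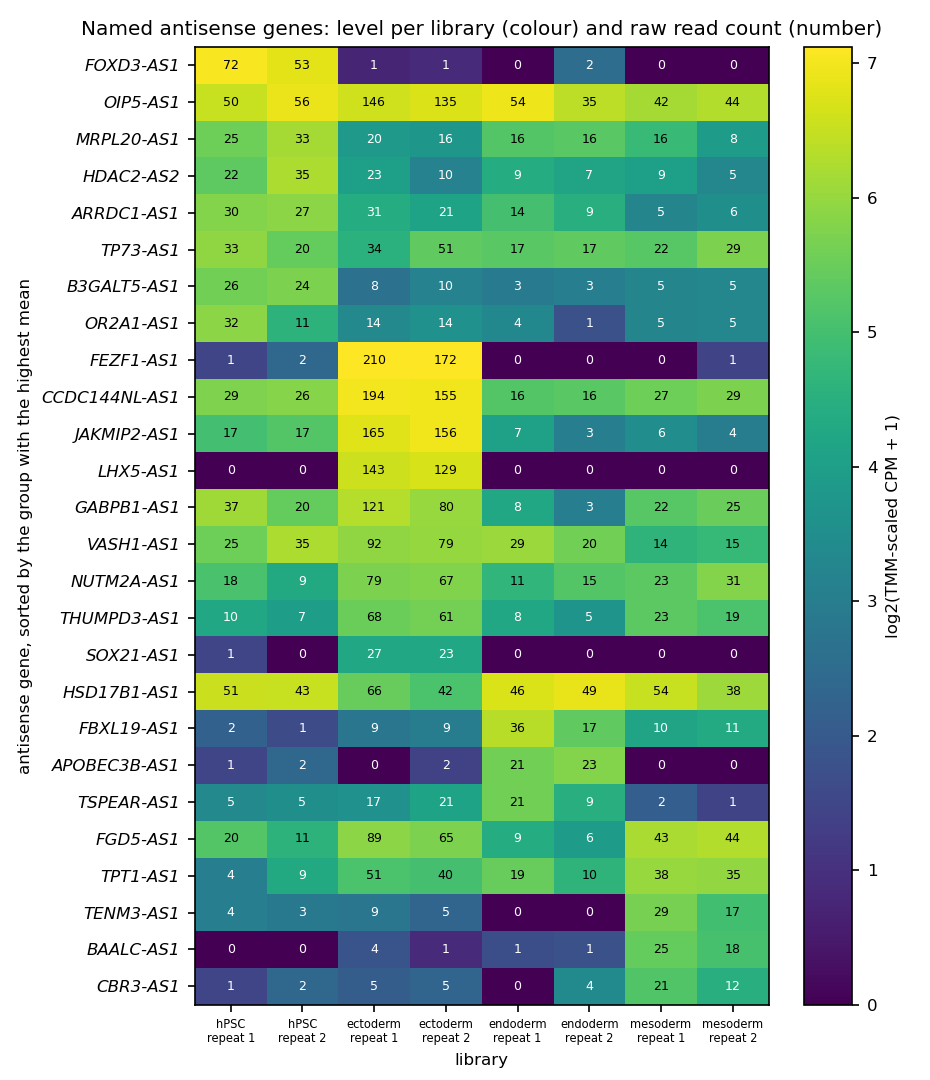
Level of 26 antisense genes (the most abundant and the most strongly changed) in each of the 8 libraries, as log2(TMM-scaled CPM + 1) in colour with the raw read count printed in each cell, sorted by the group with the highest mean. FOXD3-AS1 is bright in the 2 hPSC libraries alone, FEZF1-AS1 and LHX5-AS1 in ectoderm, APOBEC3B-AS1 in endoderm and BAALC-AS1 in mesoderm.

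Where an antisense gene and its partner were both called, they mostly had the same direction. Both genes were tested in 58 pairs. Over all genes tested, 48.6% were called in ectoderm, 27.2% in endoderm and 35.1% in mesoderm. In ectoderm both were called in 11 pairs, 10 in the same direction and 1 in opposite directions; the antisense gene was called alone in 11, the partner alone in 19, and neither in 17. In endoderm both were called in 4 pairs, all in the same direction, with 7, 11 and 36 pairs in the other classes. In mesoderm both were called in 6 pairs, 4 in the same direction and 2 in opposite directions, with 8, 11 and 33 in the others. Of the 58 pairs, the ectoderm comparison called the partner higher in 18 and lower in 12. For endoderm the partner was higher in 5 and lower in 10, and for mesoderm this was 6 and 11. How many joint calls, or shared directions, would arise with no link between the genes of a pair was not tested. Of the 10 ectoderm pairs with the same direction, 8 lay head to head and 2 tail to tail. In endoderm 2 lay head to head and 2 tail to tail, and in mesoderm 3 head to head and 1 inside the partner. Of the head-to-head pairs, 27 that lay apart and 6 that overlapped were tested, and 0 were called in opposite directions in any layer. Of the tail-to-tail pairs, 12 that lay apart and 11 that overlapped were tested.

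**Figure D4:**
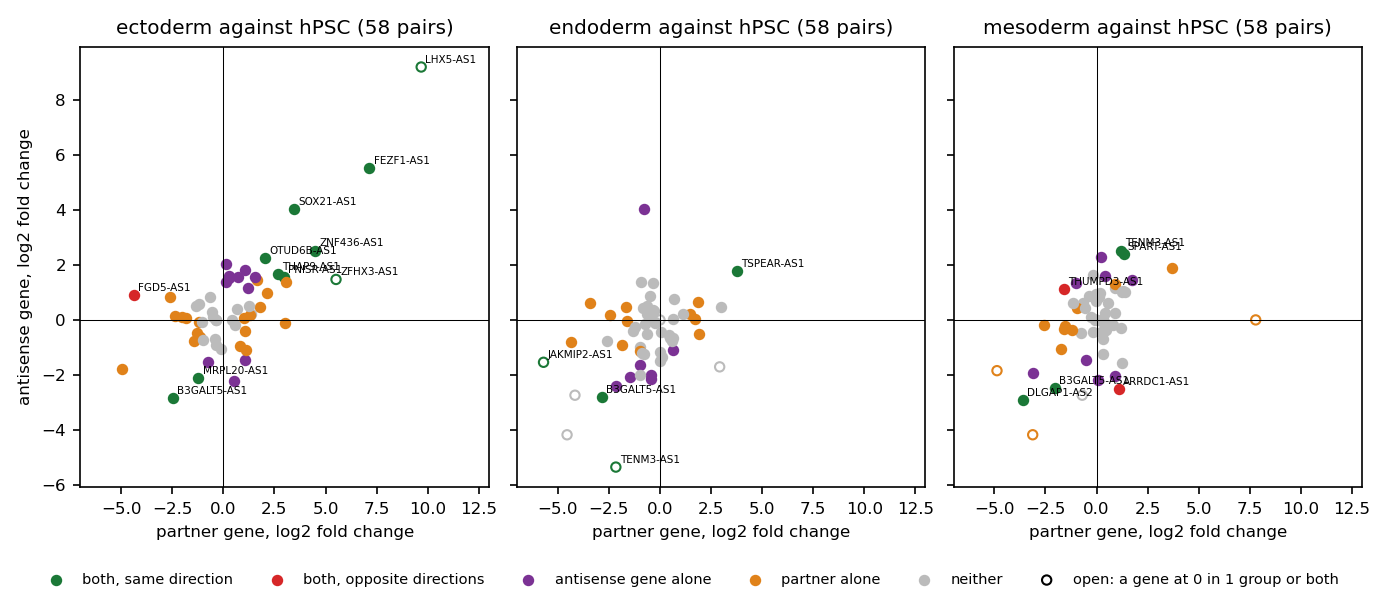
Fitted log2 fold change against hPSC of the antisense gene (vertical axis) and its partner (horizontal axis) for the 58 pairs with both genes tested, in ectoderm, endoderm and mesoderm; colour shows which gene was called, and open points have a gene at 0 in a group, so that their position depends on the prior count. The named green points, both called in the same direction, number 10, 4 and 4, and the red points, called in opposite directions, 1, 0 and 2.

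The 3 pairs called in opposite directions lay tail to tail. FGD5-AS1 (chr3:14942779-14948424, minus strand) ends 8214 nt from FGD5, a CDC42 exchange factor of endothelial cells. It had 36.5 and 23.5 CPM in the hPSC libraries, against 58.5 and 51.5 for ectoderm, 20.2 and 14.4 for endoderm and 72.8 and 77.6 for mesoderm. Ectoderm and mesoderm lay above hPSC without overlap. The log2 fold change was 0.90 (SE 0.35, edgeR adjusted p = 0.042) in ectoderm and 1.33 (SE 0.36, 0.0097) in mesoderm. FGD5 had 12 and 15 counts in hPSC and 1 and 2 in ectoderm, a ratio 24.6-fold lower (95% interval 7.58 to 127, 0.00012), which held in all alternatives run.

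The ectoderm call of FGD5-AS1 was lost in 6 of 18 alternatives: without hPSC repeat 2 (adjusted p = 0.13), ectoderm repeat 1 (0.13) or ectoderm repeat 2 (0.076), with DESeq2 (0.17), with the repeat number as a block (0.0503) and with the compared groups alone (0.069). The mesoderm call was lost without mesoderm repeat 2 (0.061) and with DESeq2 (0.062). FGD5 was not called in mesoderm (log2 fold change -1.01, SE 0.51, edgeR adjusted p = 0.14). In endoderm FGD5 was lower (22.9-fold, 3.77 to 936) and FGD5-AS1 was not called (-0.81, SE 0.46, 0.21).

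ARRDC1-AS1 (chr9:137615326-137618900, minus strand) overlaps ARRDC1, an arrestin-domain protein that drives budding of vesicles from the cell surface. It had 54.7 and 57.6 CPM in the hPSC libraries, against 20.4 and 16.6 for ectoderm, 31.5 and 21.6 for endoderm and 8.47 and 10.6 for mesoderm. All layer libraries lay below hPSC, mesoderm lowest. The log2 fold change was -1.54 (SE 0.34, edgeR adjusted p = 0.0017), -1.09 (SE 0.38, 0.045) and -2.52 (SE 0.43, 0.00041). The mesoderm call held in all 18 alternatives. The ectoderm call was lost without ectoderm repeat 2 (0.055), and the endoderm call in 15 of 18 alternatives, among them the loss of any of the 8 libraries (0.06 to 0.29).

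ARRDC1 went the other way in mesoderm, from 38.3 and 53.3 CPM in hPSC to 101.6 and 91.7 (log2 fold change 1.10, SE 0.39, edgeR adjusted p = 0.037). Its call was lost without hPSC repeat 1 (0.055), mesoderm repeat 1 (0.13) or mesoderm repeat 2 (0.095), with DESeq2 (0.11) and with the compared groups alone (0.053). It was called in no other layer (-0.76, adjusted p = 0.13, in ectoderm and 0.62, adjusted p = 0.28, in endoderm). Transcripts that overlap exons of ARRDC1 held 88.1% of the counts of ARRDC1-AS1, and all its counts were spliced.

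THUMPD3-AS1 (chr3:9385798-9397484, minus strand) ends 2057 nt from THUMPD3, a tRNA methyltransferase. It had 18.2 and 14.9 CPM in the hPSC libraries, against 44.7 and 48.4 for ectoderm, 18.0 and 12.0 for endoderm and 38.9 and 33.5 for mesoderm. In log2 terms the change was 1.51 (SE 0.38, edgeR adjusted p = 0.0043) in ectoderm, where it was lost with DESeq2 alone (0.051), and 1.13 (SE 0.42, 0.046) in mesoderm. THUMPD3 had 47.4 and 55.4 CPM in the hPSC libraries, against 63.1 and 57.1 for ectoderm, 40.5 and 21.6 for endoderm and 10.2 and 22.9 for mesoderm (log2 fold change in mesoderm -1.61, SE 0.45, 0.012). In mesoderm both libraries lay above hPSC for THUMPD3-AS1 and below it for THUMPD3. The mesoderm call of THUMPD3-AS1 was lost in 11 of 18 alternatives, among them the loss of any library but those of endoderm (0.055 to 0.15), and that of THUMPD3 without mesoderm repeat 1 (0.17) and with DESeq2 (0.054).

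**Figure D5:**
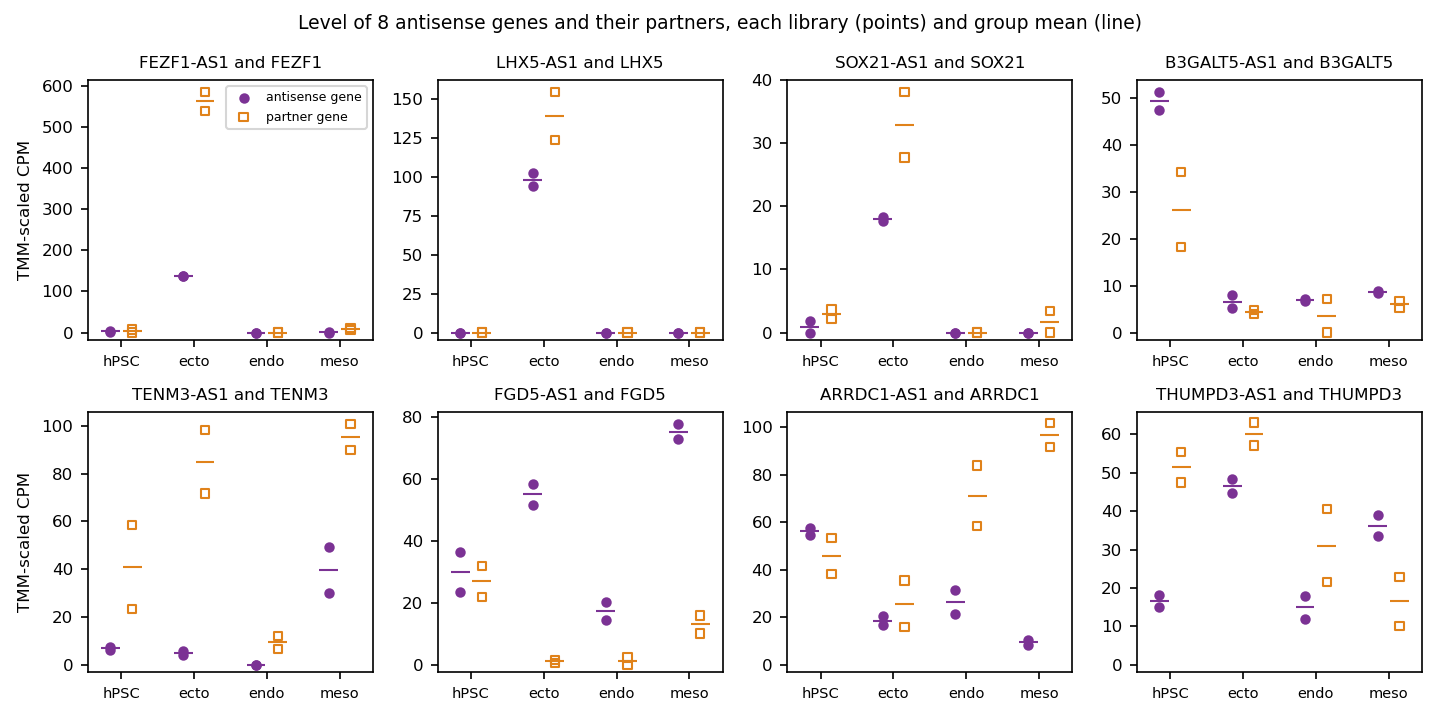
TMM-scaled CPM of 8 antisense genes (filled circles) and their partners (open squares) in each library, with a line at the mean of the 2 repeats; ecto, endo and meso are the 3 layers. FEZF1-AS1, LHX5-AS1 and SOX21-AS1 are high in ectoderm with their partners, B3GALT5-AS1 is high in hPSC with B3GALT5, and ARRDC1-AS1 is lowest in mesoderm, where ARRDC1 is highest.

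Some of the most abundant antisense genes were called in no layer. OIP5-AS1 (chr15:41283959-41306539, plus strand), a noncoding RNA known for pairing with a microRNA, had the highest count of all, 562. Its level was 91.2 and 119.4 CPM in the hPSC libraries, against 95.9 and 107.0 for ectoderm, 121.5 and 83.9 for endoderm and 71.1 and 77.6 for mesoderm. No layer was called: the log2 fold changes were -0.01 (SE 0.30), -0.05 (SE 0.32) and -0.48 (SE 0.32), with edgeR adjusted p of 0.99, 0.94 and 0.27. OIP5, a centromere protein, stood at 4.79 to 36.2 CPM in the 8 libraries and was lower in endoderm (-1.60, SE 0.55, 0.043). TP73-AS1, beside the gene of a p53 relative, stood at 22.3 to 60.2 CPM and was called in no layer.

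HSD17B1-AS1 was the highest antisense gene in endoderm among those named, at 103.5 and 117.4 CPM, and was not called there (log2 fold change 0.24, SE 0.31, edgeR adjusted p = 0.62). PCBP1-AS1, the gene with 70 transcripts, named here after its values were seen, had 22.0 to 38.3 CPM in all libraries and was called in no layer, while PCBP1, a poly(C)-binding protein that starts 102 nt away, ran from 69.5 to 683.8 CPM. The PCBP1 hPSC repeats themselves stood apart, at 683.8 and 121.5 CPM.

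VASH1-AS1 (chr14:76781733-76812882, minus strand) was called lower in mesoderm, but most of its counts lay in a transcript that shares introns with a coding gene. It had 45.6 and 74.6 CPM in the hPSC libraries, against 60.4 and 62.6 for ectoderm, 65.3 and 47.9 for endoderm and 23.7 and 26.5 for mesoderm (log2 fold change -1.23, SE 0.38, edgeR adjusted p = 0.022). A transcript of 11 exons held 98.1% of its counts and shared 9 introns with ANGEL1, a coding gene on the same strand. ANGEL1 stood at 74.3 ± 27.7 CPM in hPSC and 43.5 ± 18.4 in mesoderm (SD, n = 2; -0.74, adjusted p = 0.14). The call of VASH1-AS1 was lost in 7 alternatives: with library totals (0.053), DESeq2 (0.1) or the compared groups alone (0.068), and without hPSC repeat 2 (0.12), ectoderm repeat 2 (0.0506), mesoderm repeat 1 (0.15) or mesoderm repeat 2 (0.11).

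Such sharing was otherwise rare. Transcripts that share an intron with a coding gene of the same strand were counted for 4 antisense genes, VASH1-AS1, THAP9-AS1 with SEC31A, KRT10-AS1 with TMEM99, and ZBED3-AS1 with AC022414.1. In 8 genes, 50% or more of the counts came from transcripts with bases in coding exons of the same strand. In none did 50% or more come from unspliced transcripts lying mostly within coding exons of the opposite strand. With spliced transcripts alone, 64 antisense genes were tested. Of these, 17 were higher and 8 lower in ectoderm, where 48.92% of all genes were called. The numbers for endoderm were 3 and 11, against 27.96% of all genes called, and for mesoderm 8 and 10, against 35.66%.

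Most antisense genes stood below the partner, though not all. Of 181 with a partner that had reads, 45 had a higher mean CPM than the partner and 54 a higher CPM per kb of transcript. The median ratio of the CPM of the antisense gene to that of the partner was 0.348. Among the abundant genes, CCDC144NL-AS1 stood at 4.58 CPM per kb against 0.272 for CCDC144NL, VASH1-AS1 at 8.25 against 1.03 for VASH1, and FGD5-AS1 at 11.7 against 1.77 for FGD5. These 3 stood above the partner in CPM as well, but most counts of VASH1-AS1 lay in the transcript that shares introns with ANGEL1. For other genes the order depended on the scale: OIP5-AS1 and OIP5 stood close per kb, at 13.93 and 13.01 CPM per kb, but at 95.96 and 21.03 CPM. GABPB1-AS1 stood below GABPB1 per kb, at 4.97 against 11.3 CPM per kb, and above it in CPM, at 44.95 against 38.18.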

How the data were processed

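Long-read counts of 8 libraries (4 groups of 2 repeats) were used as the authors deposited them, as raw counts per assembled transcript in 1 combined table. Reads were aligned with minimap2 to GRCh38 and assembled with StringTie, per the submitters' processing notes. The counting tool, its use of strand and the versions are not given in the sources used here. The endoderm columns, registered under the unit of estimated counts, were deposited as whole counts, and nothing was rounded.

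Transcripts were summed per gene. All genes were fitted at once with edgeR 4.0.16 in R 4.3.3 (TMM factors, filterByExpr by group with a minimum count of 10, quasi-likelihood F test, two-sided, Benjamini-Hochberg adjustment, threshold 0.05), after a test on simulated data. Standard errors are the log2 fold change divided by the square root of F. Where a group had 1 to 3 counts, the ratio of pooled CPM is given with a 95% exact interval. Where it had 0, the fold is a bound against 3 counts per library. Both cover counting error only. Partner comparisons used the gene named before the dash, and positions came from the deposited annotation. Positions and distances within a pair used the most abundant transcript of each gene, while printed coordinates span all its transcripts.

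Genes described by name were the 10 with the highest mean CPM, in each layer the 4 with the smallest p in each direction, those called against their partner's direction, and up to 6 that exceeded the partner. Also named are 3 genes on each side of the count threshold, by count only. The members and lists were chosen with earlier results of these data known. Alternatives were RLE factors, library totals, DESeq2 1.42.0, other count filters, a block on the repeat number, other choices of transcripts, the compared groups alone, and each library left out. Library totals were added after seeing the data.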

Additional observations from a re-analysis of the deposited data

Results flagged for a closer look

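JAKMIP2-AS1 had effects of opposite direction in different layers, although the endoderm call against hPSC was lost in 9 of 18 alternatives. Its ectoderm level exceeded that in endoderm by 3.36 on the log2 scale (116.0 against 11.5 CPM, edgeR adjusted p = 7.78e-06) and that in mesoderm by 3.74 (116.0 against 8.61 CPM, adjusted p = 6.14e-06).

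TENM3-AS1 differed between endoderm and mesoderm. It was higher in mesoderm than in hPSC; in endoderm it had no counts against 7 in hPSC, too few for a fold bound above 1. The fitted difference of endoderm from mesoderm was -7.85 on the log2 scale (edgeR adjusted p = 0.00013), at 0 against 39.5 CPM. With 0 counts in endoderm, that fitted value depends on the prior count and is not a bound.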

How the results depend on the processing

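Of 56 calls of named antisense genes and partners, 19 held in every alternative run, 15 of them of antisense genes. Over 959 combinations of a value and an alternative, 0 reversed and 148 lost the call. DESeq2 ended 25 of the 56. The number of antisense genes called in ectoderm, endoderm, mesoderm and for any difference was 33, 14, 22 and 56. With DESeq2 it became 13, 6, 9 and 32, against 30.9%, 16.9%, 21.3% and 59.4% of all genes called. With a minimum count of 20, where 31 were tested, it was 19, 7, 13 and 25, against 54.0%, 32.1%, 39.4% and 81.9%. With reference transcripts only, where 40 were tested, it was 16, 6, 8 and 25, against 46.65%, 25.35%, 33.05% and 76.17%. With no filter, 90 of 198 were called for any difference, against 38.45% of all genes. Leaving out 1 library gave 18 to 39, 5 to 14, 9 to 31 and 43 to 74. With 1 library left, a group is assumed to vary like the others. The fits without 1 library tested 98 to 111 antisense genes, so their numbers do not compare directly with those over 83. The labels do not pair the repeats: the correlation of the repeat difference between groups ran from -0.0341 to 0.15. With the repeat number as a block, 30, 14, 20 and 54 were called, against 47.05%, 25.8%, 33.3% and 76.3% of all genes. Library totals gave 41, 19, 24 and 62, against 49.4%, 29.6%, 33.7% and 78.35% of all genes. Low counts limit what could be called: 83 of the 198 were tested.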
